A study of Homo sapiens with 2 samples.

Results

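Long non-coding RNAs are transcripts that are not translated into protein, and in human gene naming they carry LINC when they lie between coding genes and an AS suffix when they run opposite a named gene. The RNAs described here are the expressed LINC and antisense RNAs of AGS, an established human gastric adenocarcinoma cell line. They were chosen by their symbol, which had to start with LINC or end in AS1, AS2 or AS3, and by their signal on these same arrays, which had to reach the median of at least 1 array. In all, 440 genes measured by 551 probe sets met this rule, out of 1618 such genes and 2167 such probe sets on the array, and out of 12817 genes of any kind that met the signal filter. DSCAM-AS1, LINC00525, LINC01133 and TMEM132D-AS1 were named in advance with their differences known, so their values are descriptive.

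The study compared AGS.W, a line stably overexpressing WTX, with AGS.veh, its negative control line, and each line was measured once on a U133 Plus 2.0 array from Affymetrix. WTX, also named AMER1, is a membrane-associated protein that binds APC and restrains Wnt signalling. Per the study's methods, overexpressing cells were infected with a lentivirus carrying the whole WTX coding region and selected with puromycin, and whether a line was 1 clone was not given in the sources used here. With 1 array per line there is no replicate error and no test, a difference between lines cannot be told apart from one between cultures or arrays, and differences are given with a 2-fold mark only to describe their size. Because RNA was taken from a whole culture, fewer cells carrying an RNA and less of it per cell cannot be told apart.

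LINC and antisense RNAs are usually present at lower levels than mRNAs and are often restricted to few cell types. Many antisense RNAs start from the same promoter region as a coding gene and run away from it, others overlap the gene body, and some are hosts of small nucleolar RNAs or microRNAs. A few act in trans, as OIP5-AS1 does by binding the microRNA miR-7, but for most LINC genes no function is established.

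On the log2 scale the array of AGS.W had a median of 4.02 and that of AGS.veh one of 4.03, and both upper quartiles were 5.83. Among epithelial markers, KRT18 read 10.87 in AGS.W and 11.17 in AGS.veh. EPCAM read 6.88 in AGS.W and 5.96 in AGS.veh, while KRT19 was below the median on both arrays. One extraction note in the labels names a brain tissue while the other fields name AGS cells. Of the brain markers, the astrocyte genes GFAP, AQP4 and S100B were below the median on both arrays, while 1 of 4 astrocyte, 2 of 3 measured oligodendrocyte and 3 of 4 neuronal markers reached it on at least 1 array. Their part in the results was not tested. AMER1 itself differed by -0.16, its signal lay below the median on both arrays, and the position of its probe set relative to the transgene was not determined.

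The filter kept 25.4% of the LINC and antisense probe sets, against 60.3% of those for coding genes. Of the 440 genes, 178 were LINC genes and 262 were antisense genes, 249 of them AS1, 10 AS2 and 3 AS3. A single probe set measured 361 genes, 57 genes had 2 probe sets and 22 genes had 3 or more. The 551 probe sets had a median signal of 4.66 for AGS.W and 4.75 for AGS.veh, against 5.72 for AGS.W and 5.73 for AGS.veh over all 28504 probe sets that met the filter. Probe sets differ in brightness for the same amount of RNA, so these levels describe the array and do not rank the transcripts.

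Just inside the filter lay BFSP2-AS1, at 4.02 in AGS.W and 3.78 in AGS.veh, LINC01226, at 4.03 in AGS.W and 3.78 in AGS.veh, with LINC02443, at 4.03 in AGS.W and 3.91 in AGS.veh. Just outside it lay LINC02882, at 4.01 in AGS.W and 3.90 in AGS.veh, beside LHX4-AS1, at 3.39 in AGS.W and 4.01 in AGS.veh. Of the 551 probe sets, 101 met the filter on 1 array only, 54 through AGS.W and 47 through AGS.veh, and such probe sets had to differ between the lines.

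Most expressed LINC and antisense RNAs had nearly the same signal in both lines. The median difference, AGS.W minus AGS.veh on the log2 scale, was 0.00 over the 551 probe sets, with quartiles of -0.24 and 0.20, and it was 0.00 over all probe sets above the filter. By probe set, 7 were at least 2-fold higher in AGS.W and 14 were at least 2-fold lower. These counts are 1.27% and 2.54% of the 551, against 1.9% higher and 1.89% lower over all probe sets above the filter. The higher share lay below the share of all probe sets and the lower share above it, and both directions together came to 3.81%, beside 3.8% of all. The excess of lower ones was absent where both arrays reached the median. There 1.11% were higher and 1.33% lower, against 1.67% and 1.44% of all.

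Counted once per gene by its brightest probe set, 3 genes were at least 2-fold higher in AGS.W and 11 were at least 2-fold lower, 0.682% and 2.5% of 440. Over all genes above the filter the shares were 1.83% higher and 1.94% lower. The LINC genes had 1 higher and 6 lower of 178, and the antisense genes had 2 higher and 5 lower of 262. At a 1.5-fold mark 31 probe sets passed as higher and 47 as lower, 5.63% and 8.53%, against 7.03% and 7.19% of all.

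**Figure D1:**
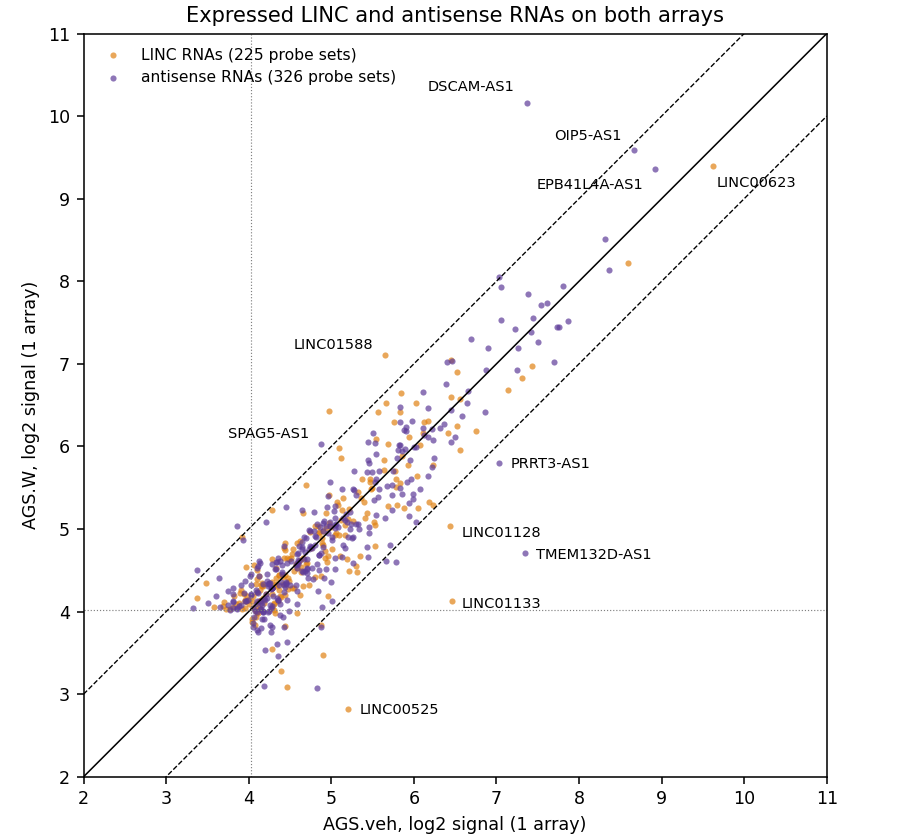
Each point is 1 of the 551 probe sets, with its log2 signal in AGS.W on the vertical axis and in AGS.veh on the horizontal axis, 1 array each. The solid line marks equal signal, dashed lines mark 2-fold, and dotted lines the medians of the 2 arrays. Most points lie between the dashed lines, DSCAM-AS1 stands farthest above them, and TMEM132D-AS1, LINC00525 and LINC01133 stand farthest below.

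How many probe sets passed the 2-fold mark depended on where their signal lay. Among the 450 that reached the median on both arrays, 5 were higher and 6 lower, 2.44%, against 3.11% of all such probe sets. Among the 101 that reached it on 1 array only, 2 were higher and 8 were lower, 9.90%, against 11.3% of all. Among the 122 that reached the upper quartile on at least 1 array, 5 were higher and 4 lower, 7.38%, against 4.80% of all. This range also admits probe sets through the brighter array alone, and those had to differ between the lines. Both 2-fold probe sets of LINC01588 and the brighter one of SPAG5-AS1 reached the quartile of 5.83 only in AGS.W. All 4 lower ones, of TMEM132D-AS1, LINC01133, LINC01128 and PRRT3-AS1, reached it only in AGS.veh. DSCAM-AS1 and a probe set of OIP5-AS1 reached it on both arrays. The 4.80% of all was admitted by the same rule, and the shares were not tested against each other. The share is no separate sign of a difference in bright RNAs. Among the lower probe sets, 8 of the 14 had an AGS.W signal below the median.

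**Figure D2:**
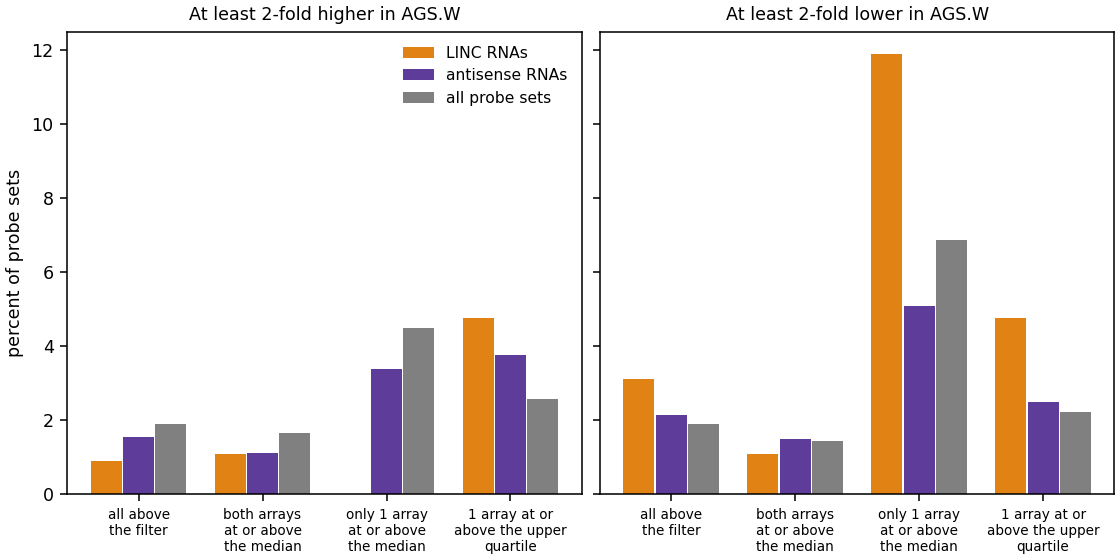
Bars give the percent of probe sets at least 2-fold higher in AGS.W (left) or lower in AGS.W (right), for LINC RNAs, antisense RNAs and all probe sets above the filter, within 4 ranges of signal. The tallest bar, 11.9%, is that of LINC probe sets lower in AGS.W with only 1 array at or above the median (5 of 42). LINC probe sets have none higher in that range, where 6.86% of all probe sets were lower and 4.48% higher. Lower probe sets in that range met the filter through AGS.veh alone, the array where they are high.

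DSCAM-AS1 was the RNA with the largest difference among the 440. It is an antisense RNA inside DSCAM, a neuronal cell adhesion gene, and is best known as an oestrogen receptor-regulated RNA of breast cancer. Its probe set read 10.16 in AGS.W, against 7.37 in AGS.veh. The 2 signals lay far above the median. The difference was 2.79, or 6.94-fold higher in AGS.W. Its sense gene DSCAM read 3.99 in AGS.W and 3.86 in AGS.veh, below the median on both, so the signal of the antisense RNA was not paralleled by one of the gene around it. The next coding gene on one side, PCP4, which encodes a calmodulin-binding peptide, read 4.96 in AGS.W and 3.54 in AGS.veh, a difference of 1.42. On the other side BACE2, an aspartyl protease gene, differed by 0.12.

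The other genes with a probe set at least 2-fold higher in AGS.W were LINC01588, SPAG5-AS1, OIP5-AS1 and TPT1-AS1. LINC01588 read 7.11 in AGS.W and 5.65 in AGS.veh on one probe set. Another read 6.43 in AGS.W and 4.97 in AGS.veh, so that both differed by 1.46. The brighter of these is of the type that can match several transcripts. The remaining one, at 3.96 in AGS.W and 3.59 in AGS.veh, was below the filter. Its flanking coding genes ARF6, a small GTPase gene, and VCPKMT, a methyltransferase gene, differed by -0.14 and 0.14.

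SPAG5-AS1 lies beside SPAG5, which encodes the mitotic spindle protein astrin. It read 6.03 in AGS.W and 4.88 in AGS.veh, a difference of 1.16, and its second probe set read 4.51 in AGS.W and 3.38 in AGS.veh, a difference of 1.13. The second met the filter through AGS.W alone, so its direction was set by the filter and is no separate sign. With its AGS.veh signal set to the median it differed by 0.48. It is also of the type that can match several transcripts. SPAG5 mRNA read 8.49 in AGS.W and 7.58 in AGS.veh, a difference of 0.91, so the antisense RNA and this neighbour were both higher in AGS.W. The genes that SPAG5-AS1 overlaps, RSKR and BLTP2, differed by -0.15 and 0.07, and SDF2 on the other side by -0.02. U133 arrays measure a labelled strand, but whether each probe set separates the strands of overlapping genes was not determined here.

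OIP5-AS1, known in other vertebrates as cyrano, was higher in AGS.W on each of its 3 probe sets. The brightest read 9.59 in AGS.W and 8.66 in AGS.veh. The next read 8.06 in AGS.W and 7.03 in AGS.veh, the last 7.03 in AGS.W and 6.46 in AGS.veh. The differences were 0.93, 1.02 and 0.57, so only 1 of the 3 reached 2-fold and the brightest did not. OIP5 itself, a centromere protein gene, read 8.02 in AGS.W and 8.13 in AGS.veh, a difference of -0.11.

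TPT1-AS1, which starts beside the gene of translationally controlled tumour protein, passed the mark on 1 probe set at 5.04 in AGS.W and 3.86 in AGS.veh. Its other probe set above the filter read 4.60 in AGS.W and 4.34 in AGS.veh, a difference of 0.26, and TPT1 itself differed by 0.03. The probe set with the smaller difference is the brighter by mean signal, so this RNA is not among the 3 higher genes. Its call therefore rests on a probe set that was below the median in AGS.veh.

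TMEM132D-AS1 had the largest difference in the lower direction. It overlaps TMEM132D, which encodes a transmembrane protein best studied in the brain. One probe set read 4.71 in AGS.W and 7.34 in AGS.veh, 6.17-fold lower in AGS.W. The other read 3.08 in AGS.W and 4.83 in AGS.veh, a difference of -1.75. It met the filter through AGS.veh alone, so its direction was set by the filter and is no separate sign. With its AGS.W signal set to the median it was 1.75-fold lower. TMEM132D itself lay below the median on both arrays, and differed by 0.46. The next expressed coding gene, the Wnt receptor gene FZD10, differed by 0.77 in the opposite direction.

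LINC00525 read 2.82 in AGS.W and 5.20 in AGS.veh, a difference of -2.38. Its AGS.W signal lay below the median, and with that signal set to the median the RNA was 2.26-fold lower. It lies beside TNS3, a focal adhesion gene, which read 7.30 in AGS.W and 8.10 in AGS.veh, a difference of -0.80.

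LINC01133, a LINC RNA studied in several epithelial cancers, read 4.13 in AGS.W and 6.46 in AGS.veh, a difference of -2.33. A second probe set was below the filter, read 1.58 in AGS.W and differed by -0.42. The coding gene overlapping it, SLAMF9, differed by 0.17, and the nearest expressed gene after it, PIGM of the glycolipid anchor pathway, by -0.48. The call rests on 1 probe set, whose AGS.W signal lay just above the array median, and the mean of both probe sets differed by -1.37.

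PRRT3-AS1 read 5.81 in AGS.W and 7.03 in AGS.veh, a difference of -1.23, well above the median in both lines. Its sense partner PRRT3, a proline-rich transmembrane protein gene, read 4.20 in AGS.W and 4.38 in AGS.veh. ZBED5-AS1, which starts beside the zinc finger gene ZBED5, read 4.61 in AGS.W and 5.67 in AGS.veh. KCNK15-AS1, which overlaps a potassium channel gene, read 3.81 in AGS.W and 4.87 in AGS.veh. Each of the pair differed by -1.06. ZBED5 differed by -0.36 and KCNK15 by -0.17.

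The remaining RNAs at least 2-fold lower by their brightest probe set had AGS.W signals below the median, other than LINC01128. LINC01943 read 3.48 in AGS.W and 4.90 in AGS.veh. LINC01806 read 3.28 in AGS.W and 4.40 in AGS.veh. SSTR5-AS1, opposite the somatostatin receptor gene SSTR5, read 3.10 in AGS.W and 4.19 in AGS.veh. LINC01004 read 3.84 in AGS.W and 4.87 in AGS.veh. These 4 differed by between -1.42 and -1.04, and with the AGS.W signal set to the median each of them fell short of 2-fold, as did KCNK15-AS1.

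**Figure D3:**
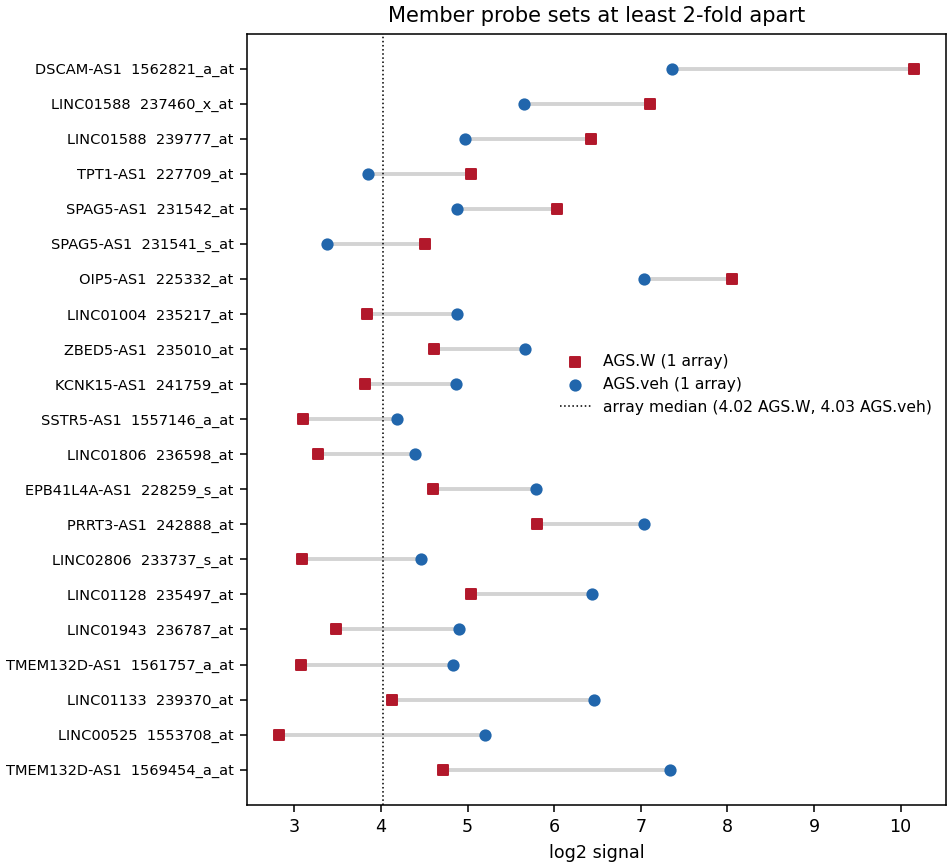
Log2 signals of the 21 probe sets at least 2-fold apart, AGS.W as red squares and AGS.veh as blue circles, 1 array each, ordered by the difference. The dotted line marks the array median, and the dimmer signal of 10 of the 21 lies to the left of it.

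For 11 of the 18 genes with a 2-fold probe set the RefSeq promoter table held a window of 300 bases, 250 before the start site and 50 after it. A pair of higher and a pair of lower RNAs is printed, since each pair holds a window poor in CG and one rich in CG. Sequences are given 5′ to 3′ on the strand of the gene in build GRCh38.p14, with each CG dinucleotide, the site of DNA methylation, in capitals.
LINC01588 (chr14:50007471-50007770, minus strand, higher in AGS.W): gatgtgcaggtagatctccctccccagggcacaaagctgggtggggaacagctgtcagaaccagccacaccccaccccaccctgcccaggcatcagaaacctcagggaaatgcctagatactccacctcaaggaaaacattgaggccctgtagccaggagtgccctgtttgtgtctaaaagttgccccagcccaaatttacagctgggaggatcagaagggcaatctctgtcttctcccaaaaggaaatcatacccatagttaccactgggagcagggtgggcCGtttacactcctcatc
OIP5-AS1 (chr15:41283740-41284039, plus strand, higher in AGS.W): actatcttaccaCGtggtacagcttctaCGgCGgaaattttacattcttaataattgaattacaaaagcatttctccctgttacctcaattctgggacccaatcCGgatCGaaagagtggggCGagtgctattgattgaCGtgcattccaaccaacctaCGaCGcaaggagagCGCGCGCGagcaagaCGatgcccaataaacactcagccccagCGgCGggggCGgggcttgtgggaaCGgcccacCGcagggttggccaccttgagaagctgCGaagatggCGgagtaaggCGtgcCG
LINC01133 (chr1:159960974-159961273, plus strand, lower in AGS.W): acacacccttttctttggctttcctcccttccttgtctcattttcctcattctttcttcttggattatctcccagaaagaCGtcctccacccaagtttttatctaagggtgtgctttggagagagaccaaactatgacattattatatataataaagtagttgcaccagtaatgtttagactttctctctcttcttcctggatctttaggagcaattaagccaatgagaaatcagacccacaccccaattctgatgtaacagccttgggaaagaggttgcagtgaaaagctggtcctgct
PRRT3-AS1 (chr3:9947154-9947453, plus strand, lower in AGS.W): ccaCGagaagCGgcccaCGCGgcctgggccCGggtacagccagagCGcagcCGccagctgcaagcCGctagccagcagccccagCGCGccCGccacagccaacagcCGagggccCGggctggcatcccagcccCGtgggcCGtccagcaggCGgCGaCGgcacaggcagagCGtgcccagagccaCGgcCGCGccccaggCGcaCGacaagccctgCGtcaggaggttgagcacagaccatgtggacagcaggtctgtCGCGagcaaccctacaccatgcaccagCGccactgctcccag

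The LINC01588 and LINC01133 windows each held 1 CG dinucleotide, the OIP5-AS1 window held 23 and the PRRT3-AS1 window 28. Over the 337 expressed RNAs with a window, antisense promoters were the richer in CG, with a median of 23 in 198 windows, against 9 in 139 LINC windows. The medians were 26 for expressed coding genes and 14 for all 27305 windows. The letters TATAAA, searched on both strands, were present in 3.54% of antisense windows and 12.2% of LINC windows. For expressed coding genes the share was 5.67%, and for all windows 12.0%. The letters CTTTGAT or CTTTGAA, which the Wnt pathway's TCF factors can bind, were searched on both strands and cannot overlap each other at 1 start position. They were present in 14 of the 337 windows, 4.15%, against 6.98% of all, and in 0 of the 11 windows of the 2-fold genes. Taken singly, CTTTGAT was in 0.593% of the 337 windows, against 1.35% of those of expressed coding genes. CTTTGAA was in 3.56%, against 2.62%, so the expressed RNAs were not lower than expressed coding genes for both. A match is only a run of letters, and its absence says nothing about the factor.

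Genes measured by several probe sets show how far a difference held within a gene. Of the 79 genes with at least 2 probe sets above the filter, 43 had differences of 1 sign throughout, 26 of them higher in AGS.W and 17 lower. The median spread between the probe sets of a gene was 0.32. In 4 genes the probe sets had opposite signs and lay at least 1 apart.

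LINC01128 was one of these. Its brightest probe set read 5.04 in AGS.W and 6.43 in AGS.veh, a difference of -1.39, but another read 5.87 in AGS.W and 5.12 in AGS.veh, a difference of 0.74. One of the others read 3.99 in AGS.W and 4.58 in AGS.veh, the last 4.65 in both lines, so this RNA had no single direction.

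EPB41L4A-AS1, a host gene of a small nucleolar RNA, read 9.36 in AGS.W and 8.92 in AGS.veh on its brightest probe set, a difference of 0.44. A dimmer probe set, of the type that can match several transcripts, read 4.60 in AGS.W and 5.79 in AGS.veh, a difference of -1.19. LINC00938 differed by 0.81, 0.87 and -0.22 on its 3 probe sets. LINC00205 differed by -0.40 to -0.80 on 4 probe sets and by 0.24 on the other. LINC02806 was lower on both of its probe sets above the filter. The dimmer read 3.09 in AGS.W and 4.46 in AGS.veh. The brighter read 5.32 in AGS.W and 6.18 in AGS.veh, which misses 2-fold.

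**Figure D4:**
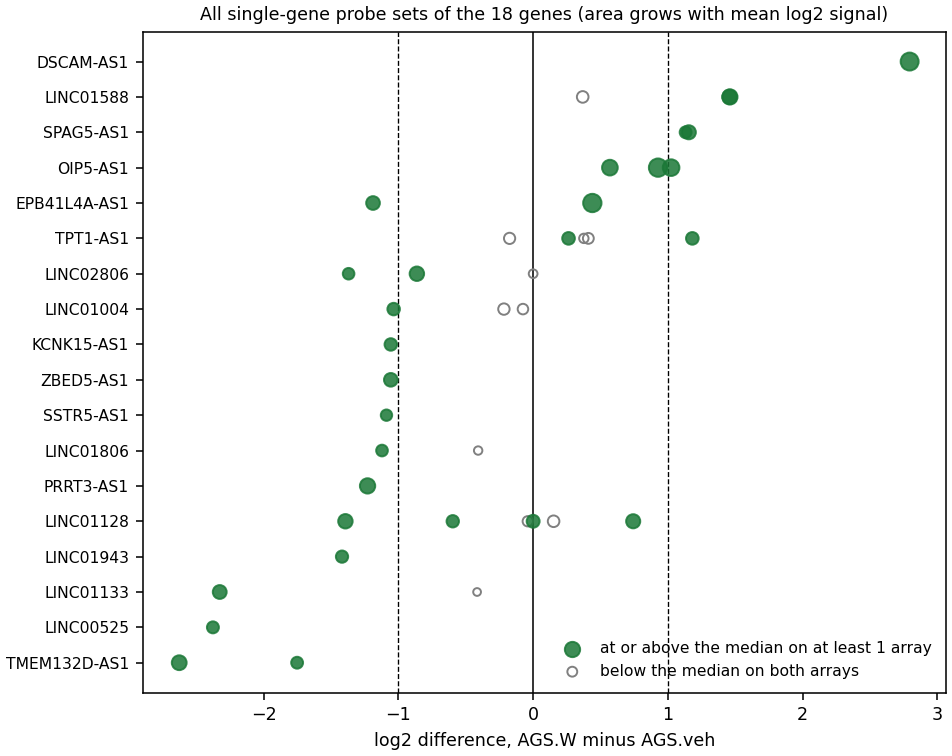
Log2 difference, AGS.W minus AGS.veh, of every single-gene probe set of the 18 genes with a 2-fold probe set. Filled points met the signal filter, open points did not, point area grows with mean log2 signal, and dashed lines mark 2-fold. SPAG5-AS1, OIP5-AS1 and TMEM132D-AS1 lie on 1 side of 0, while LINC01128 and EPB41L4A-AS1 lie on both sides. The dimmer probe sets of SPAG5-AS1 and TMEM132D-AS1 met the filter on 1 array alone, which set their side.

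Just short of 2-fold, 23 probe sets differed by 0.81 to 0.98 above 0 or by -0.80 to -0.94 below it. On the higher side, LINC00847 read 5.23 in AGS.W and 4.29 in AGS.veh. LINC00473, a cyclic AMP-responsive RNA, read 6.52 in AGS.W and 5.66 in AGS.veh. ZEB1-AS1, opposite ZEB1, the gene of a repressor that promotes epithelial-mesenchymal transition, read 5.09 in AGS.W and 4.21 in AGS.veh. On the lower side, LINC00942 read 5.30 in AGS.W and 6.23 in AGS.veh. DSP-AS1, opposite the desmosomal plakin gene DSP, read 5.09 in AGS.W and 6.03 in AGS.veh. SLC25A25-AS1 read 4.80 in AGS.W and 5.70 in AGS.veh. Neither direction held all of these near cases.

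The brightest RNAs of the set were mostly close between the lines. LINC00623 read 9.40 in AGS.W and 9.62 in AGS.veh. RUSC1-AS1 read 8.52 in AGS.W and 8.31 in AGS.veh. ASH1L-AS1, opposite a histone methyltransferase gene, read 7.95 in AGS.W and 7.81 in AGS.veh. KRT10-AS1, SLC9A3-AS1, ZNF232-AS1 and LINC00294 differed by between -0.37 and 0.13. Of the 10 brightest, DSCAM-AS1 alone reached 2-fold by its brightest probe set.

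Antisense RNAs were next set beside the genes they are named after. Of 262 antisense genes, 241 had a measured partner and 208 had a partner above the filter. The 2 differences had the same sign in 114 pairs, opposite signs in 78 and a 0 in 16, so 54.8% shared a sign. Across the pairs, which share both arrays and are not replicates, Pearson's r was 0.18 and Spearman's rho 0.16. At least 2-fold differences were seen in 4 antisense RNAs and 8 partners by their brightest probe sets, and in both members of a pair in 0 of 208. Over all genes above the filter, 3.78% were at least 2-fold apart. At that share few joint cases would occur even among unrelated genes, so their absence says nothing about the pairs.

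Start sites could be placed for 141 pairs on opposite strands. In the 69 pairs starting within 1000 bases of each other, 41 had the same sign, and in the 72 starting farther apart 36 did. The difference between these shares was not tested.

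Of the 8 partners beyond 2-fold, 7 had antisense RNAs that differed little. TNS1, which encodes the focal adhesion protein tensin, read 8.01 in AGS.W and 6.19 in AGS.veh, while TNS1-AS1 read 5.57 in AGS.W and 5.52 in AGS.veh. NR2F1, an orphan nuclear receptor gene, read 8.56 in AGS.W and 7.17 in AGS.veh, while NR2F1-AS1 read 6.21 in AGS.W and 6.22 in AGS.veh. IL6, the cytokine gene, read 5.64 in AGS.W and 6.86 in AGS.veh. IL6-AS1, which starts 420 bases away, read 4.05 in AGS.W and 3.81 in AGS.veh, with the AGS.veh signal below the median. STARD7, a mitochondrial lipid carrier gene, read 8.74 in AGS.W and 9.83 in AGS.veh, while STARD7-AS1 read 4.51 in AGS.W and 4.71 in AGS.veh. These antisense RNAs, and those of SH3BP5, NINJ2 and TNFRSF14, differed by 0.24 or less in size.

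The exception was FRMD6, a gene of the Hippo pathway, which came near a joint 2-fold difference with its antisense RNA, as SPAG5 did. FRMD6 read 5.90 in AGS.W and 7.82 in AGS.veh, a difference of -1.92, and FRMD6-AS1 read 3.47 in AGS.W and 4.36 in AGS.veh, a difference of -0.89. The AGS.W signal of the antisense RNA was below the median.

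**Figure D5:**
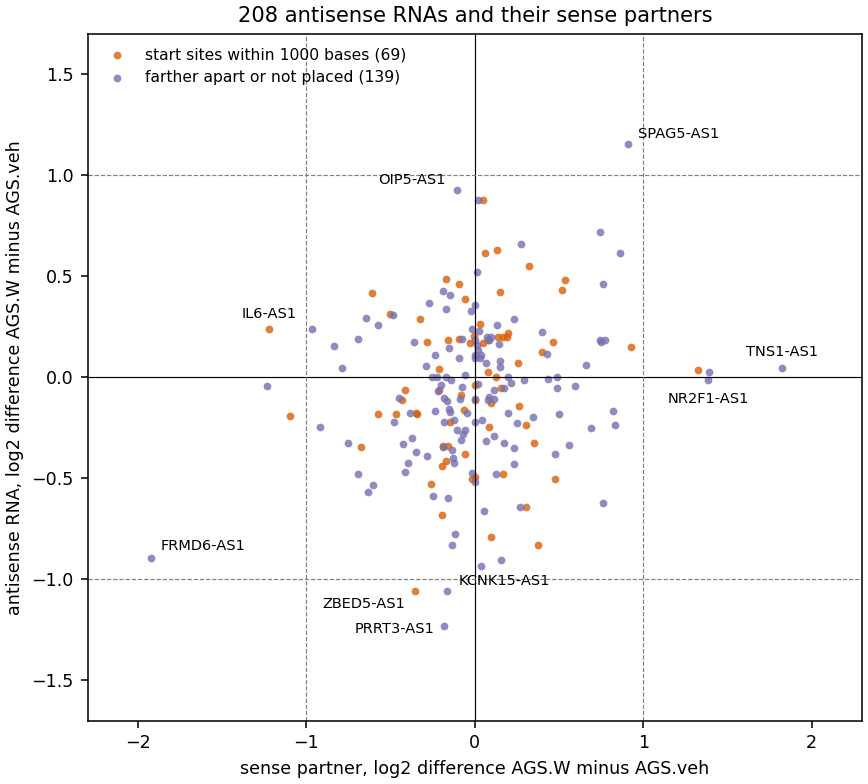
Log2 difference, AGS.W minus AGS.veh, of 208 antisense RNAs (vertical) and their sense partners (horizontal), each by its brightest probe set, 1 array per line. Orange points are pairs with start sites within 1000 bases of each other and purple points the rest, and dashed lines mark 2-fold. No pair lies beyond the dashed lines on both axes, and SPAG5-AS1 and FRMD6-AS1 come nearest. With 3.78% of all genes above the filter at least 2-fold apart, few such pairs would occur even among unrelated genes.

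LINC genes were likewise set beside the expressed coding genes on either side. In 266 pairs of 163 LINC genes with a flanking gene, 130 had the same sign and 106 opposite signs, and r across pairs was 0.11. In 9 pairs where the LINC gene overlapped a coding gene, 2 had the same sign and 7 opposite signs.

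The antisense RNAs were also grouped by the role of the partner, in lists that do not hold every such RNA, and no list had more than 1 member past 2-fold in either direction. Of 20 expressed antisense RNAs of transcription factor and chromatin genes, 0 were higher and 1, ZBED5-AS1, was lower, with a median difference of 0.03. Of the 15 listed for kinase, receptor and signalling genes, 0 passed in either direction, with a median of -0.04 and a range of -0.57 for RASSF8-AS1 to 0.66 for SBF2-AS1. SSTR5-AS1, whose partner is a receptor gene and which was 2-fold lower, is not in that list. PIK3CD-AS1, opposite a phosphoinositide 3-kinase gene, read 5.03 in AGS.W and 5.08 in AGS.veh. Of the 8 listed for channel, transporter and trafficking genes, 0 passed, with a median of -0.19. KCNK15-AS1, whose partner is a channel gene and which was 2-fold lower, is not in that list either. Over all genes above the filter the median was -0.01, and 235 genes were higher and 249 lower, 1.83% and 1.94%.

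The 19 expressed RNAs listed for metabolic and mitochondrial genes had 0 beyond 2-fold and a median of 0.17, with 13 above 0 and 5 below. NNT-AS1, opposite the mitochondrial transhydrogenase gene, read 7.03 in AGS.W and 6.4 in AGS.veh. Many RNAs in this list have partners that are not metabolic genes. TTC28-AS1, TMPO-AS1, PCOLCE-AS1, PXN-AS1, PCBP1-AS1, MCM3AP-AS1, AGAP2-AS1, TMEM147-AS1 and SDCBP2-AS1 are among them. The 13 above 0 and 5 below therefore do not describe metabolic genes as such. The 15 listed for matrix, adhesion, cytoskeleton and junction genes had 1 higher, DSCAM-AS1, and 1 lower, TMEM132D-AS1, with a median of 0.17. OIP5-AS1 and KANSL1-AS1 are in that list although their partners act in the nucleus. Only 3 HOX cluster antisense RNAs met the filter, HOXA-AS3 at 4.38 in AGS.W and 3.96 in AGS.veh, HOXC-AS3 at 4.29 in AGS.W and 3.81 in AGS.veh, with HOXD-AS2 at 4.29 in both.

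Long non-coding RNAs with other kinds of name were read for context. Of 6 expressed microRNA host genes, 1 was at least 2-fold higher and 2 were lower, with a median of -0.13, beside 1.83% higher and 1.94% lower over all genes above the filter and a median of -0.01. The same background holds for the RNAs studied in cancer, the small nucleolar RNA hosts and the nuclear RNAs that follow. MIR210HG, host of the hypoxia-induced miR-210, read 7.18 in AGS.W and 5.58 in AGS.veh on one probe set, a difference of 1.6. The other read 6.25 in AGS.W and 4.07 in AGS.veh, a difference of 2.18. MIR4435-2HG was lower, at 4.12 in AGS.W and 5.44 in AGS.veh, while its other probe set, below the filter, differed by -0.17. MIR100HG was lower too, at 5.20 in AGS.W and 6.27 in AGS.veh on its brighter probe set. Its other probe set above the filter missed 2-fold, at 4.01 in AGS.W and 4.41 in AGS.veh, a difference of -0.40.

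Of 13 expressed RNAs studied in cancer, 0 were higher and 1 was lower, with a median of -0.08. That RNA was HOTAIR, the HOXC antisense RNA known for its link to Polycomb proteins, at 3.74 in AGS.W and 5.08 in AGS.veh. Its AGS.W signal lay below the median, so it met the filter through AGS.veh alone. GAPLINC, first studied in gastric cancer, read 4.18 in AGS.W and 3.41 in AGS.veh, with the AGS.veh signal below the median. CRNDE read 8.68 in AGS.W and 8.01 in AGS.veh, so both missed 2-fold.

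Of 7 expressed small nucleolar RNA hosts and 14 nuclear and widely expressed RNAs, 0 passed 2-fold in either direction, with medians of -0.15 and -0.10. DANCR, a host that is also studied for holding back differentiation, read 8.51 in AGS.W and 9.27 in AGS.veh. SNHG17 differed by -0.72 and ZFAS1 by 0.24. MALAT1, the nuclear speckle RNA, read 12.02 in AGS.W and 11.45 in AGS.veh. NORAD, which binds Pumilio proteins, read 10.60 in AGS.W and 10.57 in AGS.veh.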

How the data were processed

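RNA of 2 AGS lines was measured on 1 array each. The authors deposited 1 table of normalised log2 signal for both arrays. The submitters' processing notes name RMA and MAS5 with no role, and the annotation release was not given in the sources used here. No further normalisation was applied. After 62 control probe sets were left out, 54613 remained, of which 41091 were assigned to 1 gene alone by the platform annotation.

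The median of each array over the 54613 probe sets served as the signal filter, and a gene was represented by its brightest probe set above it. Differences are AGS.W minus AGS.veh. With 1 array per line no test was run, and precision is limited by their number. Named are the RNAs with a probe set at least 2-fold apart, those just short of it, the 10 brightest, and listed genes. The members and gene lists were chosen with earlier results of these data known. Partner and neighbour genes and promoter windows came from RefSeq tables (GRCh38.p14), in which the gene identifiers of 5 of the 551 probe sets had no match. Scripts ran in Python 3.11.15 with pandas 2.3.3, numpy 2.4.6, scipy 1.17.1 and statsmodels 0.14.6, and were tested on simulated data. Alternatives were other scalings, filters, fold marks and probe set rules.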

Additional observations from a re-analysis of the deposited data

How the results depend on the processing

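Of 63 alternative values for the main counts and medians, 48 stayed close to the main value. Requiring the median on both arrays left 6 lower probe sets and 5 lower genes, requiring the upper quartile left 4 and 4, and setting signals below the median to the median left 7 and 6. At a 1.5-fold mark there were 31 higher and 47 lower probe sets (19 and 37 genes), and at 3-fold 1 was higher and 4 lower (1 and 3 genes). Without a signal filter 41.2% of sense-antisense pairs shared a sign, against 54.8%. Median centring, quantile normalisation and removal of a lowess curve kept all 14 genes past 2-fold. With all probe sets of a gene averaged, LINC01004 (-0.44), LINC01128 (-0.19) and LINC01806 (-0.76) fell short of it, LINC01133 was -1.37, against -2.33 by its brightest, and EPB41L4A-AS1 was -0.37, against 0.44 by its brightest. Without probe sets of the types that can match several transcripts, TPT1-AS1 was 1.18, against 0.26, which made 4 higher genes rather than 3. No paired analysis was possible because the lines had no replicates, and leaving one out was likewise impossible. Why the values moved was not tested.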

Other observations

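Identical signals on both arrays were more frequent among LINC probe sets than among antisense probe sets or all probe sets. In 37 of the 551, 6.72%, the 2 arrays held an identical log2 signal, against 4.49% of all probe sets above the filter, and the share was 9.33% for LINC and 4.91% for antisense probe sets. Of the 514 others, 384, or 74.7%, had a difference that matched that of at least 1 other probe set on the array to 6 decimals, against 55.3% of all. ZBED5-AS1 and KCNK15-AS1 shared their -1.06 with SIMC1 and GPR161, and LINC01806 shared its -1.12 with TSPAN5. The dimmer 2-fold probe set of LINC01588 shared its 1.46 with CKAP2L. The 2-fold probe sets of LINC02806, EPB41L4A-AS1 and TPT1-AS1 also shared their differences with other probe sets. DSCAM-AS1, TMEM132D-AS1, LINC00525 and LINC01133 shared theirs with none. Identical signals were rarer among bright probe sets. Of those reaching the upper quartile on at least 1 array, they made up 1.25% of all and 0 of the 122 members. The median of the mean signal was 4.61 for LINC, 4.77 for antisense and 5.72 for all probe sets above the filter. Neither share was set against probe sets of matched signal, and what produced the repeats was not tested.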
